A study of Mus musculus with 8 samples.

Results

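The genes described here encode the receptors through which serotonin, dopamine, noradrenaline, histamine, acetylcholine and adenosine act on a cell. They were chosen by gene symbol alone, as the probe sets whose single annotated symbol belongs to the Htr, Drd, Adra, Adrb, Chrm, Chrn, Hrh or Adora families. The rule found 73 of the 45101 probe sets on the array, standing for 42 of 18194 genes. These were 13 serotonin, 4 dopamine, 4 histamine, 2 noradrenaline, 3 muscarinic, 15 nicotinic and 1 adenosine receptor genes. Other members of these families were not analysed here.

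Translating ribosome affinity purification (TRAP) captures tagged ribosomes, with the RNA bound to them, from the cells that carry a transgene. The mice were of the BAC transgenic line Hcrt JD218, named for the hypocretin gene, on a mixed Fvb and c57/bl6j background. They were adults of 6 to 12 weeks, of both sexes, and 5 mice were pooled for each sample. From the dissected diencephalon of each of 4 replicate preparations, the immunoprecipitate and the unbound RNA that served as its tissue control were amplified and hybridised separately, giving 4 arrays a group and 8 in all. Both groups carried the transgene, and an immunoprecipitate from mice without it was not analysed here. Cell type and ribosome binding therefore differed together between the groups, and in such bulk RNA fewer cells of a type and less RNA per cell cannot be told apart. With 4 arrays a group, precision is limited by their number.

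Hypocretin neurons of the lateral hypothalamus promote wakefulness, and the monoamine and cholinergic neurons they excite send fibres back to them. Most of these genes encode receptors coupled to G proteins. Those coupled to Gi lower cyclic AMP and tend to inhibit a neuron, those coupled to Gs raise cyclic AMP, and those coupled to Gq release calcium from stores. The other 17 genes encode subunits of cation channels, the 15 nicotinic subunits together with Htr3a and Htr3b.

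Levels are log2 array values, set so that the biotinylated hybridisation controls have the same mean in both groups, and a change is immunoprecipitate minus unbound. A gene was tested if its level reached 50 on the linear scale (5.64 on the log2 scale) on at least 4 of the 8 arrays. It was called if limma's adjusted p was under 0.05 and the change was at least 2-fold. A level under 50 was taken as a bound when folds were formed, so that such folds are given as "at least". Levels of different probe sets are not comparable with each other. Hcrt itself, the gene the line is named for, had a level of 15.36 ± 0.17 (SD, n = 4) in the immunoprecipitate. In the unbound RNA it was 10.33 ± 0.55, a 32.5-fold difference. All 6 listed hypocretin-neuron markers were called higher, against 4.74% of all tested genes. The list was chosen with earlier results of these data known, so that this count is not independent support.

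Of the 42 receptor genes, 15 could be tested. The serotonin receptors Htr1a and Htr1f were higher in the immunoprecipitate. The 9 genes Htr1b, Htr2c, Htr4, Htr5a, Htr7, Drd2, Hrh1, Hrh3 and Chrna7 were lower, and Drd1, Chrna4, Chrnb2 and Chrm1 were not called. The 2 genes called higher were 13.3% of those tested, against 4.74% of all 10398 tested genes, and the 9 called lower were 60%, against 44.2%. Htr1f and Htr5a passed the minimum through 1 group only, and so did Drd2. With levels under 50 taken as bounds, 1 of the genes called higher and 8 of those called lower remained at least 2-fold apart, so these shares support nothing about the receptors as a family. The groups did not overlap for 13 of the 15 genes, against 57.1% of all genes. The median change was -1.16 for the receptors and -0.85 for all tested genes, so that most genes of either kind were lower in the immunoprecipitate on this scale.

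**Figure D1:**
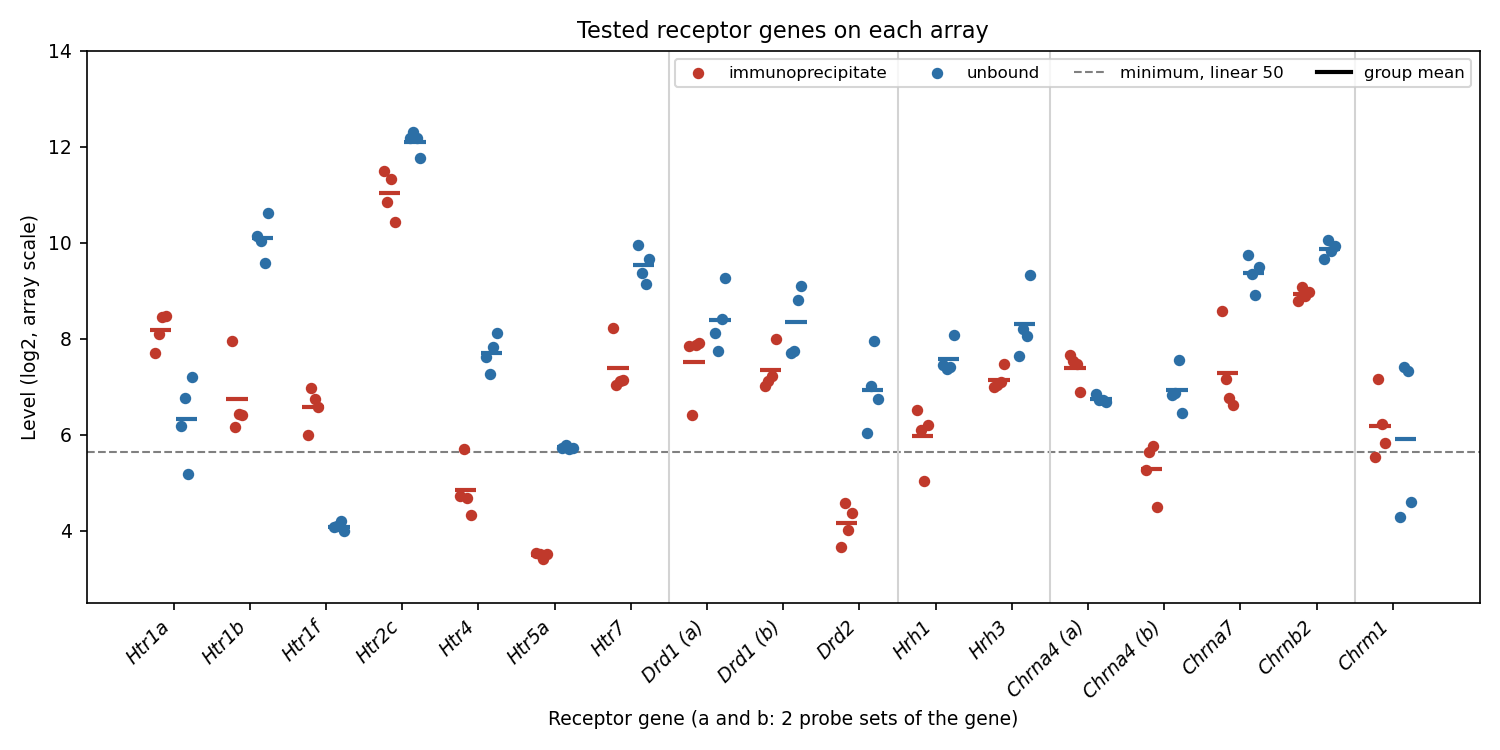
Level (log2) of each tested receptor probe set on the 4 immunoprecipitate and 4 unbound arrays, with points for arrays, short bars for group means and a dashed line at the minimum of 50. Only Htr1a, Htr1f and the first Chrna4 probe set have every immunoprecipitate array above every unbound array.

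Serotonin receptors gave the widest range of changes, with 7 of 13 genes tested, 2 called higher and 5 lower. Each of the 7 rests on a single tested probe set. Each also has another on the array, under the minimum on all 8 arrays and not tested. Htr1a, the Gi-coupled receptor through which serotonin hyperpolarises many neurons, measured 7.70, 8.09, 8.45 and 8.48 on immunoprecipitate arrays 1 to 4 and 6.17, 6.76, 5.17 and 7.20 on unbound arrays 1 to 4. Every immunoprecipitate array was above every unbound array, of which 1 was under the minimum. The change was 1.85 ± 0.42 (SE; adjusted p = 0.0032), at least 3.32-fold. Htr1f, a second Gi-coupled receptor, measured 6.00, 6.97, 6.75 and 6.58 in the immunoprecipitate and 4.07, 4.09, 4.20 and 3.99 in the unbound RNA. It reached the minimum on all 4 immunoprecipitate arrays and on 0 unbound arrays, so that the difference can only be bounded as at least 1.89-fold.

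Htr1b, also Gi-coupled and best known as a brake on release at axon terminals, went the other way. Its levels were 7.96, 6.15, 6.42 and 6.41 in the immunoprecipitate and 10.14, 10.04, 9.58 and 10.62 in the unbound RNA. Array 1 of the immunoprecipitate stood 1 to 2 log2 units above the other three, yet still below every unbound array. The change of -3.36 ± 0.41 (adjusted p = 8.3e-05) was a 10.3-fold difference. Without that array it was -3.77, or -3.90 with the scaling constant fitted again on the remaining arrays.

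The Gs-coupled receptors Htr4 and Htr7 were both lower. Htr4 measured 4.73, 5.70, 4.67 and 4.33 in the immunoprecipitate, reaching the minimum on 1 array, and 7.61, 7.27, 7.82 and 8.11 in the unbound RNA, at least 4.15-fold higher there. Htr7, which has been linked to circadian timing, measured 8.23, 7.03, 7.12 and 7.13 in the immunoprecipitate and 9.94, 9.37, 9.15 and 9.66 in the unbound RNA. As for Htr1b, array 1 was the highest of its group without reaching the unbound range. The change was -2.15 ± 0.32 (4.44-fold), and without that array -2.44, or -2.57 with the constant fitted again.

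Htr2c, a Gq-coupled receptor known for its part in feeding circuits, was lower by a small margin. It measured 11.49, 10.85, 11.33 and 10.44 in the immunoprecipitate and 12.17, 12.30, 12.17 and 11.76 in the unbound RNA. The groups did not overlap, and the change of -1.07 ± 0.25 (2.10-fold, adjusted p = 0.0036) was just past the 2-fold threshold. Without immunoprecipitate array 4 it was not called (-0.87, or -0.77 with the constant fitted again). Without immunoprecipitate array 2 or unbound array 1 it was called with the constant kept (-1.01 and -1.05) and not with it fitted again (-0.95 and -0.86). Htr5a, a Gi-coupled receptor, measured 3.54, 3.52, 3.41 and 3.52 in the immunoprecipitate and 5.73, 5.79, 5.71 and 5.73 in the unbound RNA. All unbound arrays lay just above the minimum and all immunoprecipitate arrays below it, so the difference can only be bounded as at least 1.07-fold.

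The start regions of Htr1a, Htr1f and Htr1b are shown because these Gi-coupled relatives changed in opposite directions. Each line gives the 250 bases before the RefSeq start in GRCm38.p6, on the gene's strand, and capitals mark matches to the motifs searched.
Htr1a: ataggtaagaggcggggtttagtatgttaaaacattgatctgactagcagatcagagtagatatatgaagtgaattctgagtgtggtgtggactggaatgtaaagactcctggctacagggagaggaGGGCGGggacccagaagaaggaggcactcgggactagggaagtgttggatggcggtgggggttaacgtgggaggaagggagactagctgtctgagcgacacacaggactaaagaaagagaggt
Htr1f: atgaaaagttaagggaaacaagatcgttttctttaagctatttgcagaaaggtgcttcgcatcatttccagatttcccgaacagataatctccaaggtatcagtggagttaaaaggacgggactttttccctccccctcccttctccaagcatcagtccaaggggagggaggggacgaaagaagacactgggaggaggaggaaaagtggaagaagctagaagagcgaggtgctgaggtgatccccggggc
Htr1b: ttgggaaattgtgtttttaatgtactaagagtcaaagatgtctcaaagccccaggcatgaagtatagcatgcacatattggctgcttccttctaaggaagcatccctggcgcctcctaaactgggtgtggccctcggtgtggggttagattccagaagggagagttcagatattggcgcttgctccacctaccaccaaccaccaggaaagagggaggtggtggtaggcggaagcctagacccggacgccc
They lie at chr13:105443443-105443692 on the plus strand, chr16:65105785-65106034 on the minus strand and chr9:81633833-81634082 on the minus strand, respectively. In all, 6 motifs were searched on both strands. The GC box GGGCGG, held by 32.74% of 32851 such regions, was found 1 time in Htr1a. TAATTA (4.84% of regions), TGACGTCA (1.55%), TGACG (17.77%, and contained in TGACGTCA), TATAAA (12.37%) and CACGTG (6.02%) were found in none of the 3. Htr1f and Htr1b held no match to any of the 6. The share of G and C was 50.4% for Htr1a, 49.2% for Htr1f and 52.4% for Htr1b, against a median of 52.4%. A region was used for 13 of the 15 tested genes. Chrm1 had none, and for Htr4 the search was set to leave an entry out.

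The 2 tested dopamine receptors were Drd1 and Drd2, which mark the 2 main classes of striatal output neuron. Drd2, the Gi-coupled receptor, measured 3.65, 4.58, 4.00 and 4.36 in the immunoprecipitate, under the minimum on every array, and 6.04, 7.02, 7.95 and 6.73 in the unbound RNA. The groups did not overlap, and with the immunoprecipitate levels as bounds the difference was at least 2.47-fold. Drd1, the Gs-coupled receptor, has a pair of tested probe sets. The one with the higher mean measured 7.85, 6.40, 7.87 and 7.90 in the immunoprecipitate and 8.12, 7.75, 8.42 and 9.26 in the unbound RNA. These ranges overlapped, and the change of -0.88 ± 0.43 did not pass (adjusted p = 0.095). The other changed by -0.998 ± 0.382 (adjusted p = 0.042), which fell just short of 2-fold, and the difference between the probe sets was 0.12 (exact permutation p = 0.80, two-sided).

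Both tested histamine receptors were lower. Hrh1, the Gq-coupled receptor through which histamine excites neurons, measured 6.51, 6.11, 5.04 and 6.20 in the immunoprecipitate and 7.46, 7.37, 7.40 and 8.08 in the unbound RNA. The groups were apart, with 1 immunoprecipitate array under the minimum, and the change of -1.61 ± 0.34 (adjusted p = 0.0023) was at least 2.76-fold. Hrh3, a Gi-coupled receptor that also serves as the autoreceptor of histamine neurons, measured 6.99, 7.03, 7.10 and 7.47 against 7.64, 8.21, 8.05 and 9.32. Its groups lay close together without overlapping, and the change was -1.16 ± 0.35 (2.23-fold, adjusted p = 0.016). Without unbound array 4 it was -0.82 (-0.83 with the constant fitted again) and was not called.

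Among nicotinic subunits, 3 of 15 genes were tested. Chrna7, which forms calcium-permeable channels on its own, measured 8.57, 7.16, 6.77 and 6.61 in the immunoprecipitate and 9.75, 9.35, 8.90 and 9.49 in the unbound RNA. The groups did not overlap, and the change was -2.09 ± 0.42 (4.27-fold, adjusted p = 0.0015). Without immunoprecipitate array 1, the highest of its group, it was -2.52, or -2.66 with the constant fitted again. Chrnb2, the subunit that joins Chrna4 in the main high-affinity nicotine receptor of the brain, measured 8.78, 9.08, 8.89 and 8.97 against 9.67, 10.05, 9.83 and 9.92. These narrow groups did not overlap, but the change of -0.94 ± 0.19 (adjusted p = 0.0018) was 1.92-fold and so was not called.

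Chrna4 gave contrary answers with its pair of tested probe sets. The probe set with the higher mean measured 7.66, 7.53, 7.47 and 6.88 in the immunoprecipitate and 6.85, 6.72, 6.72 and 6.67 in the unbound RNA. It changed by 0.65 ± 0.24 (adjusted p = 0.040), which was 1.57-fold and not called. The other measured 5.25, 5.64, 5.75 and 4.50 against 6.84, 6.87, 7.55 and 6.44, a change of -1.64 ± 0.34 (adjusted p = 0.0020; at least 2.40-fold). The groups did not overlap in either, and the probe sets differed in change by 1.91 with values under 50 raised to 50. The exact permutation p was 0.0286 (two-sided), the smallest that 4 against 4 allows. It was fixed by those opposite separations and adds no support. The direction for Chrna4 therefore depends on the probe set. In the probe set with the higher mean, unbound arrays 2 and 3 gave the same value. Whether that value is background signal was not tested. Another Chrna4 probe set was under the minimum on all 8 arrays and was not tested.

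Chrm1, a Gq-coupled muscarinic receptor, was the only one of 3 muscarinic genes tested. It measured 5.54, 7.16, 6.23 and 5.83 in the immunoprecipitate and 4.28, 7.41, 7.33 and 4.60 in the unbound RNA. The unbound arrays fell into a high and a low pair that enclosed the immunoprecipitate arrays, and the change of 0.28 ± 0.74 did not pass (adjusted p = 0.75).

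The remaining genes gave no test. Under the minimum on all 8 arrays were 24 of them: Htr2b, Htr3a, Htr3b and Htr6 for serotonin, Drd3 and Drd4, Hrh2 and Hrh4, Chrm3 and Chrm4, Chrna1, Chrna2, Chrna3, Chrna5, Chrna9, Chrnb1, Chrnb3, Chrnb4, Chrnd, Chrne and Chrng, Adra1b and Adra2c, and Adora3. A value under the minimum is a bound on the signal of these probe sets, not evidence that the receptor is missing. Htr5b and Chrna6 reached the minimum on 3 unbound arrays and Htr1d on 2, and these 3 genes did so on 0 immunoprecipitate arrays.

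By coupling, the 6 tested Gi-coupled genes held both genes called higher and 4 called lower. The 3 Gs-coupled genes had 2 called lower, the 3 Gq-coupled genes 2 and the 3 channel subunits 1. With 4.74% of all tested genes called higher and 44.2% called lower, numbers this small set no class apart.

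Differences between receptors of the same transmitter were compared within arrays. All 26 pairs of tested genes were computed first, and 17 passed an adjusted p of 0.05. Because several pairs rested on values under 50, and 4 changed sign when such values were raised to 50, the comparison was then restricted, after those values had been seen, to the 10 pairs of genes at or above 50 on at least 7 arrays, with any value under 50 raised to 50. The differences below are therefore not those of the changes given above where Htr1a (1.73 after raising) or Hrh1 (-1.47) is involved. Of the 10 pairs, 8 had the smallest exact permutation p that 4 against 4 allows, 0.0286 (two-sided, adjusted 0.0357 over 10 pairs). Adjusted over all 26 pairs, with low values raised, it was 0.0391. For Htr1a against Htr1b, Htr7 and Htr2c that p was fixed in advance, as it was for Chrna4 against Chrna7 and Chrnb2. In each of these pairs the groups of both genes lay apart in opposite directions, so the p adds no support. The permutation test treats the 8 arrays as exchangeable, although same-numbered arrays share a preparation. Within the 4 preparations the smallest p possible is 0.125, which no pair could pass, and all 10 differences had the same direction in every preparation. The change of Htr1a exceeded that of Htr1b by 5.10 ± 0.59 (SE), that of Htr7 by 3.88 ± 0.55 and that of Htr2c by 2.81 ± 0.56. Htr1b in turn fell further than Htr2c by 2.29 and than Htr7 by 1.21, and Htr7 further than Htr2c by 1.08. Through its higher probe set, Chrna4 exceeded Chrna7 by 2.74 and Chrnb2 by 1.59. These contrasts were not run for its other probe set. Chrnb2 and Chrna7 differed by 1.15 ± 0.53 (p = 0.114, adjusted 0.127, exact permutation) and Hrh3 and Hrh1 by 0.31 ± 0.31 (p = 0.371, exact permutation), neither of which passed.

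The counts depend on how the groups are scaled to each other. With each array centred on its median, 3 receptors were called higher (20.0%, against 20.4% of all genes) and 6 lower (40.0%, against 19.6%). With quantile normalization across the 8 arrays, 3 were higher (20.0%, against 16.4%) and 5 lower (33.3%, against 20.6%). With the poly-A controls, which are added to RNA before amplification, 0 were higher (against 0.673%) and 13 lower (86.7%, against 94.5%). Htr1a was thus called higher on 3 of these 4 scales and changed by -0.11 (adjusted p = 0.80) on the poly-A scale, where Htr1f changed by 0.52 (adjusted p = 0.062). Htr1b, Htr4, Htr7, Drd2 and Chrna7 were called lower on all 4. Htr2c, Hrh1 and Hrh3 lost their calls with median centring and quantile normalization, Htr5a with quantile normalization alone (-0.80), and Chrna4 was called higher with both.

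**Figure D2:**
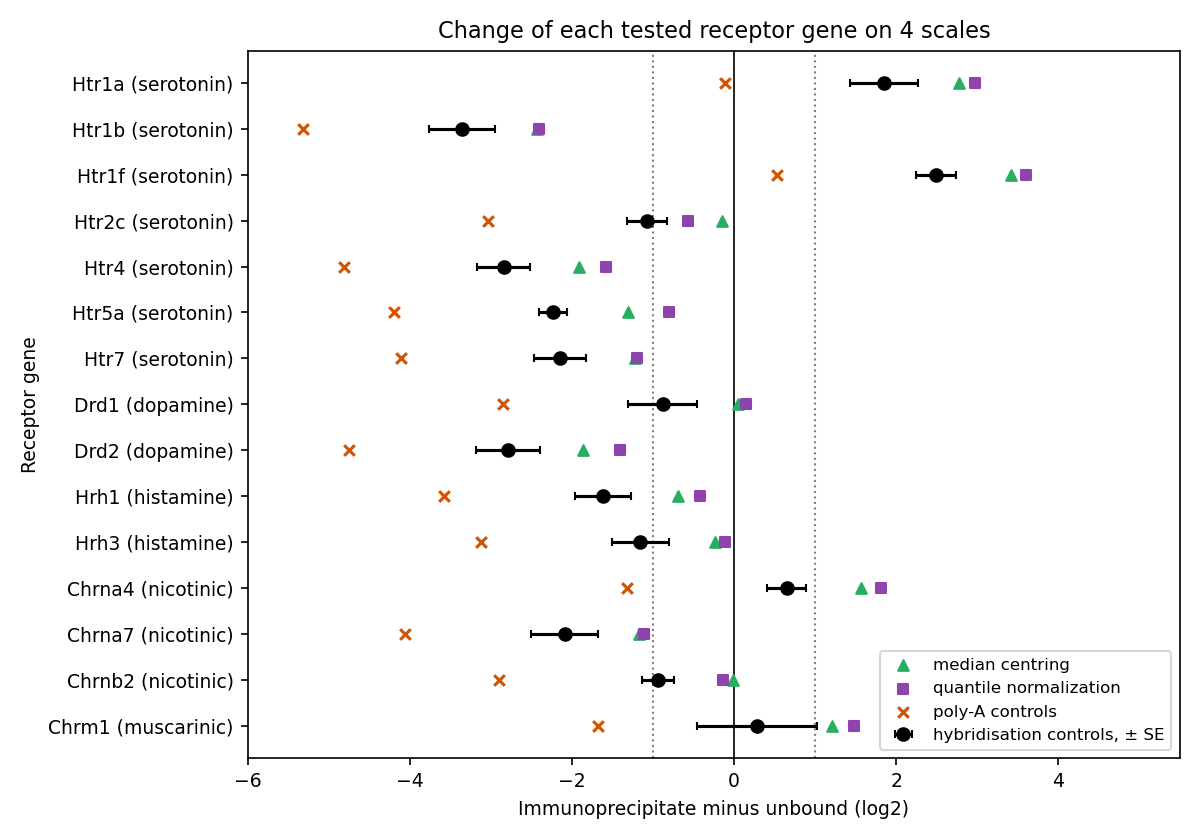
Change of each tested receptor gene (log2, immunoprecipitate minus unbound) on 4 scales, with the SE for the hybridisation-control scale and dotted lines at 2-fold. Htr1a moves from 1.85 to -0.11 on the poly-A scale, while Htr1b stays below -2.4 on every scale.

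Most markers of other cells were lower in the immunoprecipitate but not missing from it, and they differed between its arrays. The counts below stand beside 44.2% lower among all tested genes. With median centring (19.6% of all genes lower) the lower markers were 3 of 5 histaminergic, 5 of 7 thalamic and habenular and 7 of 8 astrocyte. On that scale they were also 5 of 6 GABA, 3 of 7 oligodendrocyte, 4 of 6 microglia, 1 of 3 vascular and 3 of 5 other lateral hypothalamic. Of the histaminergic list 4 of 5 tested markers were called lower, with summed linear levels of 1081 to 1812 in the immunoprecipitate and 2735 to 3876 in the unbound RNA, and Wif1 was under the minimum on every immunoprecipitate array. For thalamus and habenula 6 of 7 were lower (594 to 4809 against 9399 to 19972; Lef1 under the minimum). All 8 astrocyte markers were lower (1688 to 8182 against 18433 to 24517; Sox9 under the minimum). The same held for 6 of 6 GABA, 7 of 7 oligodendrocyte, 6 of 6 microglia and 3 of 3 vascular markers, and for 3 of 5 of other lateral hypothalamic cells. Of these, Dlx2 (GABA), C1qa, Cx3cr1 and Tmem119 (microglia) and Cldn5 (vascular) were under the minimum on every immunoprecipitate array. Like Wif1, Lef1 and Sox9, they passed the minimum through the unbound RNA alone. With levels under 50 as bounds, Cldn5 was at least 1.68-fold and Wif1 at least 1.99-fold lower, short of the 2-fold threshold. Immunoprecipitate array 1 had the highest mean level of the histaminergic markers (7.50, against 6.17 to 6.56 on the others), the thalamic markers (8.38, against 5.78 to 7.60) and the astrocyte markers (8.06, against 6.46 to 7.49). Among the 15 receptors it was the highest array of its group for 7 and the lowest for 6. It was the highest for Htr1b, Htr7, Chrna7, Htr2c, Hrh1 and Htr5a, all called lower, with Htr5a under the minimum on every immunoprecipitate array. It was the lowest for Drd2 and Hrh3 and neither for Htr4, which were lower too. It was the lowest for Htr1a and Htr1f, called higher. Of the genes not called, it was the lowest for Chrm1 and Chrnb2 and the highest for Chrna4 in its higher probe set. The part of other cells in the receptor values was not tested.

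**Figure D3:**
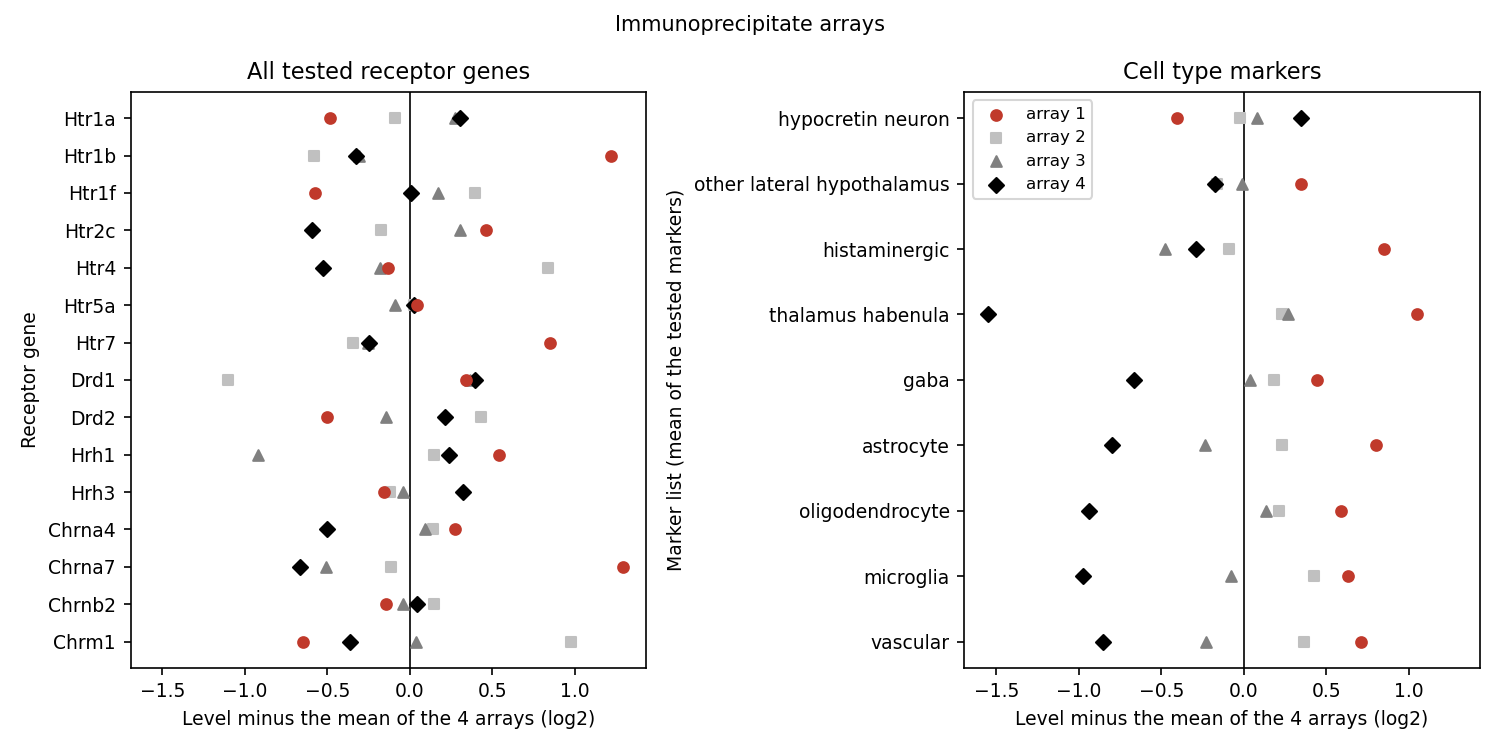
Level of each immunoprecipitate array minus the mean of the 4 (log2), for all 15 tested receptor genes at left and for the mean of each marker list at right. Array 1 is the highest of the 4 for 7 receptors and the lowest for 6, while it is the highest for every list but that of hypocretin neurons.

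Genes that make, clear and transduce these transmitters were taken from lists. Of 6 tested genes of synthesis and uptake, 0 were called higher and 4 lower, beside 44.2% lower among all genes. The 4 became 2 with median centring and 1 with quantile normalization. Among the 4, Dbh was under the minimum on every immunoprecipitate array and passed it through the unbound RNA alone. Its difference can only be bounded as at least 1.41-fold. Hdc, which makes histamine, measured 7.06, 6.23, 6.16 and 6.23 in the immunoprecipitate and 9.13, 9.16, 9.75 and 9.57 in the unbound RNA. The groups did not overlap, and the difference was 7.91-fold (adjusted p = 2.2e-05). Immunoprecipitate arrays 2 and 4 gave the same value for Hdc, and whether that value is background signal was not tested. Slc18a2, the vesicular monoamine transporter, was at least 4.45-fold lower (-2.53 ± 0.77, adjusted p = 0.015). Its call was lost with median centring (-1.60, adjusted p = 0.092), with quantile normalization (-1.32, adjusted p = 0.17), without unbound array 1 and without preparation 4. Of 6 genes of breakdown and removal, 1 was higher and 2 lower, against 4.74% and 44.2% of all genes. Maob, which oxidises monoamines, changed by -2.40 ± 0.45 and Adk, which phosphorylates adenosine, by -1.52 ± 0.34, which was not called with median centring (-0.60). Hdc, Slc18a2 and Maob also stand in the histaminergic marker list.

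Among 6 partners of nicotinic receptors, 2 were higher and 1 lower, against 4.74% and 44.2% of all genes. With median centring 3 were higher and 1 lower (against 20.4% and 19.6%). Quantile normalization also gave 3 higher and 1 lower (against 16.4% and 20.6%). Lypd6, a membrane-anchored protein of the Ly6 family that modulates nicotinic currents, measured 12.77, 13.09, 13.09 and 13.84 in the immunoprecipitate and 9.81, 10.01, 10.13 and 10.51 in the unbound RNA. The groups were more than 2 log2 units apart, and the change was 3.08 ± 0.25 (8.48-fold, adjusted p = 8.3e-06). Lynx1, a relative that dampens nicotinic receptors, measured 11.47, 11.74, 11.45 and 10.50 against 13.04, 13.67, 13.80 and 13.28. Here every immunoprecipitate array was the lower, by 4.46-fold on average (adjusted p = 0.00011). Ly6h, another family member, named after its values were seen, changed by 2.10 ± 0.42, and by 0.13 (adjusted p = 0.76) on the poly-A scale. On the poly-A scale 1 of the 6 partners was higher, Lypd6, and 4 were lower.

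Of 17 tested G proteins, arrestins, kinases and other receptor partners, 3 were higher and 6 lower, against 4.74% and 44.2% of all genes. With median centring 5 were higher and 2 lower (against 20.4% and 19.6%). With quantile normalization 3 were higher and 2 lower (against 16.4% and 20.6%), and on the poly-A scale 0 and 14 (against 0.673% and 94.5%). S100a10, known as p11, binds Htr1b and Htr4 and aids their delivery to the membrane. It measured 13.98, 13.91, 13.85 and 13.91 in the immunoprecipitate and 11.10, 11.41, 11.56 and 11.15 in the unbound RNA. With little spread within a group, the change was 2.61 ± 0.15 (6.10-fold, adjusted p = 1.1e-06), and on the poly-A scale it was 0.64 and not called. Ppp1r1b, a phosphatase inhibitor controlled by dopamine signalling, changed by -2.55 ± 0.61 (5.85-fold). Ache, of the removal list, and Caly and Gnaz, of this one, were the other genes called higher and were named after their values were seen. They changed by 1.12, 1.33 and 1.13, and on the poly-A scale by -0.85, -0.64 and -0.84. Ache also lost its call without immunoprecipitate array 3, without unbound array 3, and without immunoprecipitate array 2 with the scaling constant kept. Caly lost it without immunoprecipitate array 3 with the constant fitted again, and without preparation 4. Gnaz lost it with the mean of probe sets, and without immunoprecipitate array 4 with the constant kept.

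**Figure D4:**
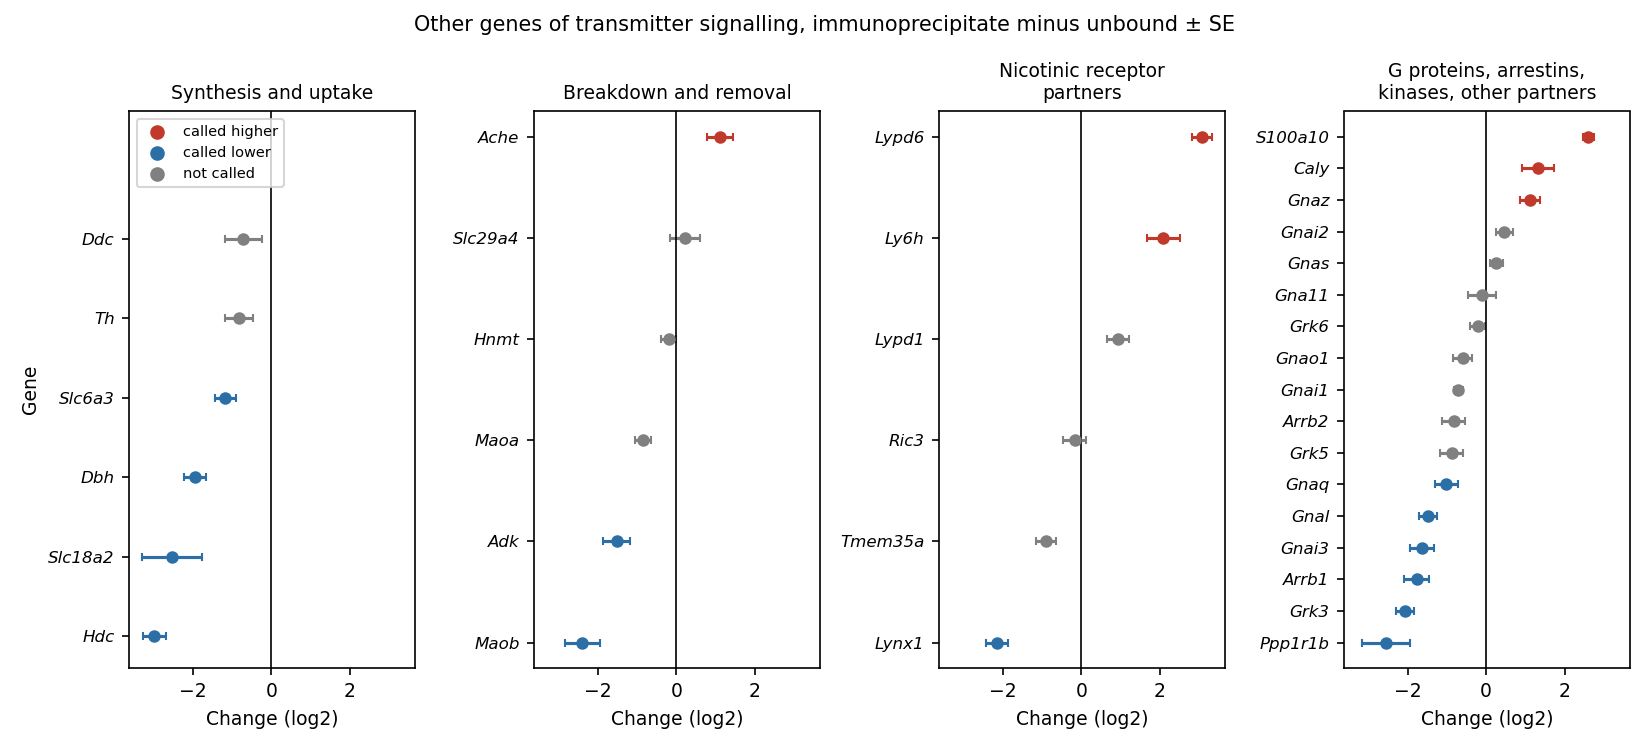
Change (log2, ± SE) of the tested genes of 4 lists, coloured by call. Lypd6, Ly6h and S100a10 lie furthest to the right, and Hdc, Ppp1r1b and Slc18a2 furthest to the left.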

How the data were processed

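RNA from 4 immunoprecipitates and 4 unbound fractions was hybridised to Affymetrix mouse arrays. The deposited values were normalized with GCRMA, per the submitters' processing notes (version not given in the sources used here), within each group separately, per the labels of the series. Their log2 scale was read from the deposited values. To each group 1 constant was added so that 18 hybridisation controls had equal means (0.02 apart as deposited), and 64 control probe sets were left out. Probe sets reaching 50 on at least 4 arrays (17865, for 10398 genes) entered a limma fit (version 3.58.1, R 4.3.3; trend, no block), with Benjamini-Hochberg adjustment over all of them. The probe set with the highest mean stood for a gene. The fit was tested on simulated data.

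Symbols came from the platform annotation, and start regions from RefSeq (GRCm38.p6). Receptors and lists were chosen with earlier results of these data known. All tested receptors could be named, with array values for up to 4 called genes in each direction per transmitter; those of Htr2c, Drd1 and Chrnb2 were added after their values were seen. In the other lists Hcrt and up to 2 called genes with the largest change were named. Same-numbered arrays come from 1 preparation, per the labels, and their deviations correlated (0.46, 0.32, 0.28 and 0.58, against at most 0.26 between different numbers). The replicates are separate preparations of pooled mice. Alternatives covered scaling, the minimum, thresholds, the trend, probe set choice, the replicate block and leaving out arrays, with the scaling constant fitted again or kept. Restricting the receptor pairs to 10 of 26 was decided after seeing their values. The search covered 6 motifs, all of which are reported. Figures were drawn with matplotlib 3.10.9.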

Additional observations from a re-analysis of the deposited data

Results flagged for a closer look

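In 5 of 34 groups of 4 arrays examined, 1 array stood apart from the other three by more than Dixon's 95% critical value, which chance does in about 1 group in 20. For Htr1b and Htr7 it was immunoprecipitate array 1, at 7.96 and 8.23. For Drd1 it was immunoprecipitate array 2, at 6.40 in the probe set with the higher mean. For Hrh1 it was unbound array 4, at 8.08. For Htr5a it was immunoprecipitate array 3, at 3.41, where all 4 arrays lie under the minimum and the gap is small.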

How the results depend on the processing

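Main counts were 2 receptors higher and 9 lower. Quantile normalization gave 5 lower, the poly-A controls 0 higher, no filter on low values 15 lower, a minimum of 100 gave 1 higher, and a 4-fold threshold 1 higher. On the poly-A scale Htr1a (-0.11), Chrna4 (-1.32), Chrm1 (-1.68), Ache (-0.85), Caly (-0.64) and Gnaz (-0.84) changed direction, because that scale lowers every change by the same amount. Drd1, not called, changed by 0.14 with quantile normalization and by 0.04 with median centring. Leaving out 1 array gave 2 higher each time and 8 to 10 lower, with the scaling constant fitted again and, added after seeing the data, with it kept. Leaving out both arrays of preparation 1 gave 2 and 9, and of preparation 4 gave 2 and 7, both chosen after seeing the data. With the replicate block the counts were 2 higher and 9 lower, and no receptor call changed. Htr1b, Htr4, Htr7, Chrna7 and Drd2 stayed called lower under every alternative in which they were tested. The other causes of these shifts were not tested. Signal over background limits Htr1a, Htr1f, Htr4, Htr5a, Drd2, Hrh1 and the lower probe set of Chrna4, whose folds are bounds.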
